A study of Homo sapiens with 4 samples.

Results

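The genes described here encode the proteasome, its activators and inhibitor, and the chaperones that assemble it. They were chosen by name (PSMA to PSMG followed by a number) with at least 50 read counts summed over the 4 libraries. Of 48 matching names, 46 passed, among 58174 genes with an Ensembl identifier in a table of 59263 rows. The other two, PSMA8 and PSMB11, which belong to the testis and thymus forms of the particle, had 0 counts in each library. All 46 genes had an FPKM (fragments scaled to transcript length and library depth) of 1 or more in each library.

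Transcriptomes were measured in 2 pancreatic cancer cell lines, SW1990 and PANC-1, either unirradiated or irradiated with 10 Gy of X-rays. The lines were grown in different media, so that medium and line cannot be told apart. Each of the 4 groups is 1 library, and the interval from irradiation to RNA extraction is not given in the sources used here. The libraries held 17851815 (SW1990 unirradiated), 18305682 (SW1990 irradiated), 23323266 (PANC-1 unirradiated) and 20026595 (PANC-1 irradiated) counts in genes. With 1 library a group there is no replicate check. Tests on the reads therefore compare libraries and not conditions, and their 95% intervals cover counting error only.

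The labelled cell type was checked first. The epithelial keratin KRT8 had an FPKM of 1352 and 1888 in the unirradiated and irradiated SW1990 libraries and of 785.7 and 850.6 in the PANC-1 libraries. All 5 epithelial markers reached an FPKM of 1 in both SW1990 libraries. In unirradiated PANC-1 cells 4 of 5 did, and EPCAM (2.29) and CDH1 (0.673), which encode epithelial adhesion proteins, were low there. The leukocyte genes PTPRC and CD3E had at most 2 counts in a library. The summed FPKM of 6 leukocyte markers was 1.77 and 2.25 in SW1990 and 19.4 and 14.98 in PANC-1 cells, where CD68, a lysosomal protein gene, gave 18.8 and 13.9. Of 4 fibroblast markers COL1A1 alone reached an FPKM of 1, and of 3 endothelial markers 0 did.

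The 26S proteasome degrades proteins tagged with ubiquitin. Its barrel-shaped core holds the proteolytic sites inside rings of alpha and beta subunits, and the regulatory particle recognises substrates, removes ubiquitin and unfolds them with a ring of ATPases. Interferon replaces the 3 catalytic beta subunits by the immunoproteasome subunits PSMB8, PSMB9 and PSMB10, which favour peptides suited for antigen presentation, and dedicated chaperones guide assembly without being part of the finished particle.

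Levels were compared between genes per length, as FPKM. The median of the 46 genes was 56.7 in unirradiated SW1990 cells, 54.1 in irradiated SW1990 cells, 43.8 in unirradiated PANC-1 cells and 47.3 in irradiated PANC-1 cells. The median of all genes whose FPKM reached 1 was between 8.84 and 9.37 in the same libraries. The 14 core genes (alpha and beta, without the immunoproteasome) had medians of 86.1, 88.1, 72.1 and 72.4, and the 17 genes of the regulatory particle had 68.2, 63.6, 59.6 and 61.7. The 7 chaperone genes were lower, with medians of 23.1, 21.0, 22.3 and 16.8. The immunoproteasome genes were the lowest group, at 5.28, 5.55, 4.33 and 6.22.

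**Figure D1:**
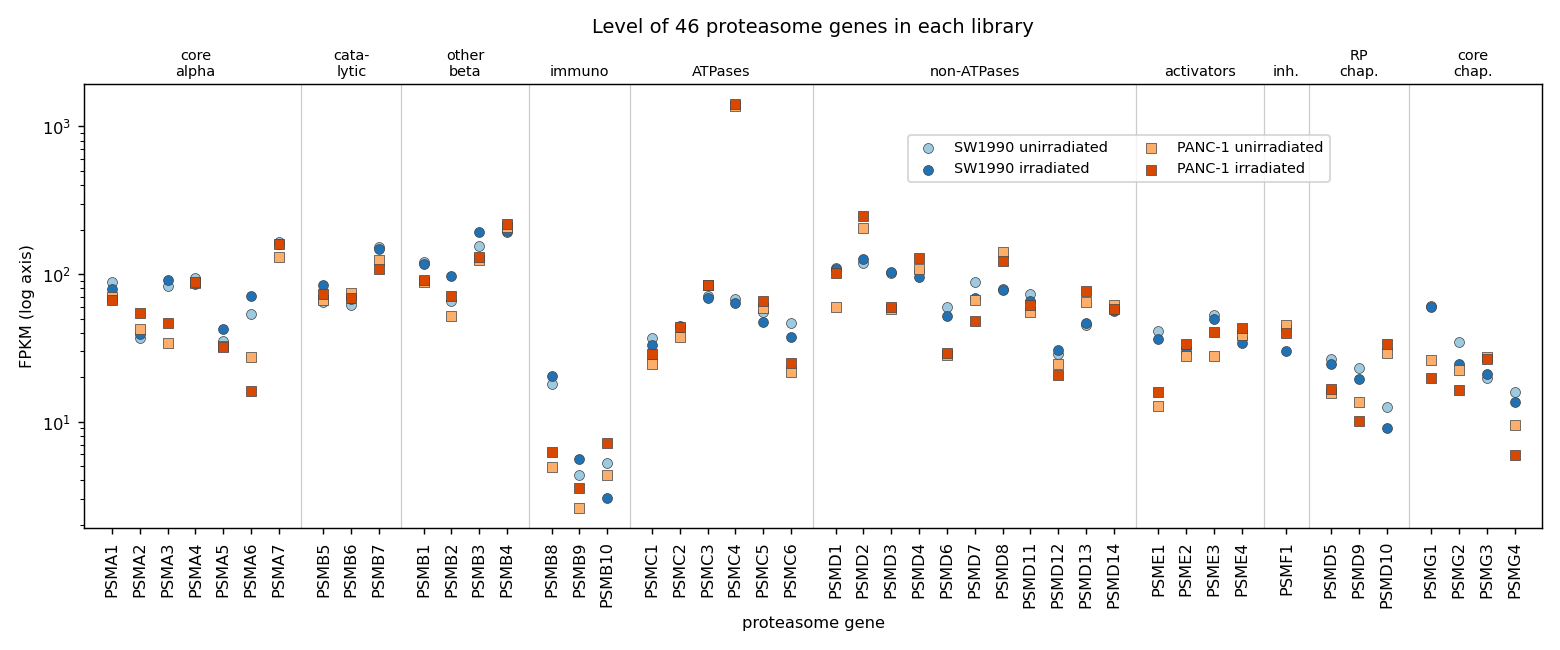
FPKM (log axis) of each of the 46 proteasome genes in the 4 libraries, ordered by role. RP chap. and core chap. are the chaperones of the regulatory particle and of the core, and inh. is the inhibitor PSMF1. Most genes lie between 10 and 200, PSMB9 and PSMB10 lie under 10 in each library and PSMB8 in PANC-1 cells, and PSMC4 stands alone at 1381 and 1421 in PANC-1 cells.

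Within a library the core genes differed from each other by at most 13.4-fold. In unirradiated SW1990 cells they ranged from 35.04 FPKM for PSMA5 to 192 FPKM for PSMB4. PSMB4, a beta subunit without a proteolytic site, was the highest core gene in each of the 4 libraries. The lowest was PSMA5 or PSMA2 in SW1990 cells and PSMA6 in PANC-1 cells, all genes of the alpha ring, which gates entry into the barrel.

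PSMC4, one of the 6 ATPases, was far higher in PANC-1 cells. Its counts were 2099 and 2003 in the unirradiated and irradiated SW1990 libraries and 57490 and 50663 in the PANC-1 libraries. Its FPKM was 68.2, 63.6, 1381 and 1421 in that order, which ranked it 847th, 916th, 23rd and 24th of 58174 genes. Both PANC-1 libraries lay above both SW1990 libraries with no overlap, and irradiated and unirradiated cells of a line were close. After TMM scaling the unirradiated count was 24.0-fold higher in PANC-1 cells (log2 SW1990 over PANC-1 -4.59, 95% interval -4.65 to -4.52), and in the irradiated pair it was 24.3-fold higher. The gene took 34.3% of all reads on the 46 genes in unirradiated PANC-1 cells and 2.13% in SW1990 cells. The other 5 ATPases lay between 21.8 and 84.9 FPKM in unirradiated PANC-1 cells. With PSMC4 the 46 genes held 0.718% of the counts in PANC-1 and 0.551% in SW1990 cells, and without it 0.472% and 0.539%, so that the order of the lines turned with this gene.

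The genes next to PSMC4 were high in PANC-1 cells as well. PSMC4 lies on the plus strand of chromosome 19 at chr19:39971005-39981441 (GRCh38). The 10 nearest tested genes on each side were all more than 2-fold higher in unirradiated PANC-1 cells than in SW1990 cells, and 19 of 20 were more than 4-fold higher, with a median log2 SW1990 over PANC-1 of -4.21. Among all 16626 genes tested, 11.1% were more than 4-fold higher in PANC-1 cells. The kinase gene AKT2, 259 kb downstream, had 38943 counts in PANC-1 and 1979 in SW1990 cells, or 17.3-fold more after scaling. FBL, which encodes the nucleolar methyltransferase fibrillarin, had 61608 against 4302 counts, and RPS16, a ribosomal protein gene farther upstream, had 91672 against 5595. These 3 genes were named after their values were seen.

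The stretch ended abruptly on one side. From SIRT2 to RNU6-945P, over 1421 kb (chr19:38878555-40299584), all 40 consecutive tested genes were more than 2-fold higher in PANC-1 cells. The limits of this run were read from the values, so that it is a description. On the log2 scale of PANC-1 over SW1990, the next gene downstream, C19orf47, was at 0.61, and the median of the next 10 tested genes was 0.54. Upstream most neighbours were also higher in PANC-1 cells, with exceptions such as RINL, which was lower there (-2.39). After irradiation the median log2 change of the 40 genes in PANC-1 cells was 0.02.

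**Figure D2:**
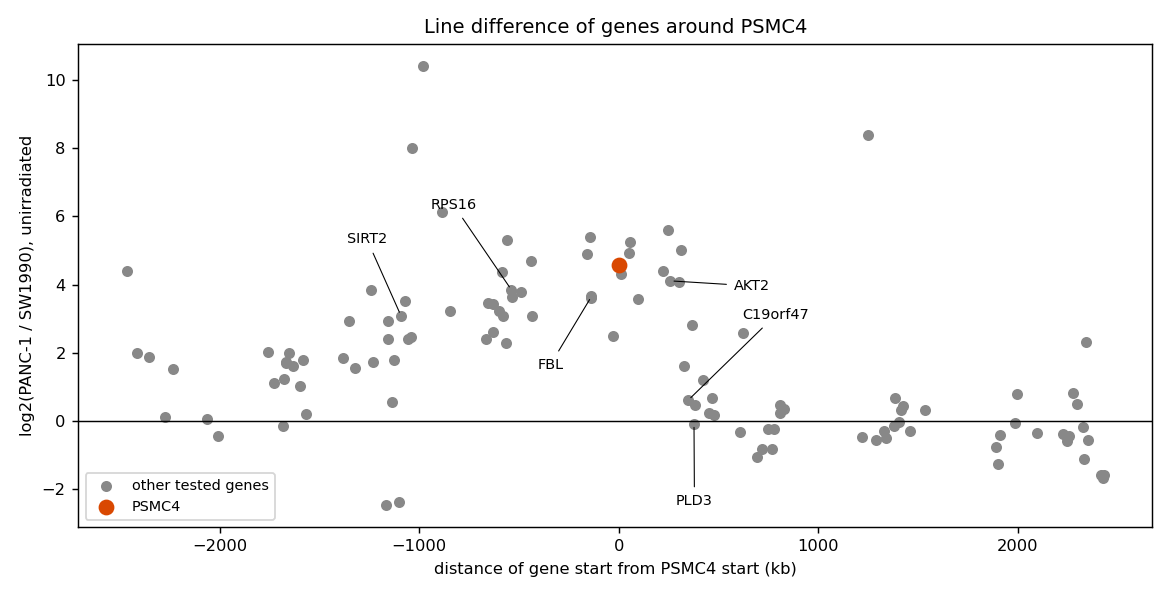
Log2 ratio of PANC-1 to SW1990 counts in unirradiated cells (vertical axis) for 115 tested genes, by the distance in kb of each gene's start from the start of PSMC4 (horizontal axis); 6 genes with 0 counts in either library are not drawn. Genes within about 300 kb of PSMC4 lie above 2, and most of those from C19orf47 onwards scatter around 0.

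No other proteasome gene had as many such neighbours. For the other 45 genes, the number of nearest tested genes over 4-fold higher in PANC-1 cells was between 0 and 6. PSMD8, a subunit of the regulatory particle lid on the same chromosome (chr19:38374536-38383824), came closest, with 16 of 20 neighbours more than 2-fold and 6 more than 4-fold higher, beside 20.9% and 11.1% of all genes tested. PSMD10, on chromosome X, followed with 10 and 5 of 20, and 5 of its neighbours were more than 2-fold higher in SW1990 cells. PSMD8 itself had 2438 and 2453 counts in SW1990 and 5630 and 3565 in PANC-1 cells (log2 SW1990 over PANC-1 -1.02 unirradiated, -0.48 irradiated). DNA copy number was not measured here.

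Between the unirradiated lines 8 of the 46 genes were called different, at a q-value under 0.001 (exact binomial test of the reads, Benjamini-Hochberg adjusted over 16626 genes) and a fold above 2, where 36.1% of all genes tested were called. Of these 5 were higher (17.8% of genes) and 3 lower (18.4% of genes) in SW1990 cells, the latter PSMC4, PSMD8 and PSMD10. At a fold of 1.5, 17 were called, beside 51.0% of genes. The median absolute log2 difference was 0.40 for the 46 genes and 0.79 for all genes tested. Scaled to total counts in place of TMM, the median of all genes tested moved from 0.01 to 0.20, and 7 members were called higher and 2 lower (21.4% and 15.4% of genes), with PSMA6 and PSMD6 added and PSMD8 lost. PSMD8 and PSMD6 lay at the 2-fold limit, with log2 differences of -1.02 and 0.98. If a coefficient of variation of 0.2 between libraries is assumed, 2 members were called, PSMC4 and PSMD10, beside 21.9% of genes.

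The gene for PSMB8, an immunoproteasome subunit with chymotrypsin-like activity, had 455 and 516 counts in SW1990 and 169 and 186 in PANC-1 cells. Each SW1990 library lay above each PANC-1 library. The difference was 1.62 on the log2 scale (1.36 to 1.88, q = 2.05e-39) unirradiated and 1.53 (1.29 to 1.78) irradiated. PSME1, one of the pair of subunits of the interferon-inducible activator PA28, had 783 and 747 counts in SW1990 against 311 and 378 in PANC-1 cells (1.52, 1.33 to 1.72). Its partner PSME2 had 842, 890, 844 and 908 counts in the same order of libraries and differed by 0.19. The 2 subunits of this activator were thus apart in the line difference, with FPKM of 12.7 for PSME1 and 27.97 for PSME2 in unirradiated PANC-1 cells and 41.5 and 29.8 in SW1990 cells.

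Higher in SW1990 cells were also the ATPase PSMC6 (1583 and 1385 against 849 and 997 counts), the alpha subunit PSMA3 (1628 and 1667 against 890 and 976) and PSMG1 (1310 and 1284 against 705 and 551), which pairs with PSMG2 to build the alpha ring. Their log2 differences in unirradiated cells were 1.09, 1.06 and 1.08. In irradiated cells they were 0.53, 0.83 and 1.28, and there the call held for PSMG1, where 35.3% of genes were called. Lower in SW1990 cells was PSMD10 (gankyrin), a chaperone of the regulatory particle, with 289 and 269 counts against 1089 and 971 (-1.73, -1.92 to -1.54). Of the 7 chaperone genes, 5 were higher in SW1990 cells in each pair, beside 50.3% (unirradiated) and 49.8% (irradiated) of all genes. PSMG3 and PSMD10 were lower.

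With both treatments in 1 fit (edgeR quasi-likelihood test on 4 libraries, treatment as a covariate, 1 residual degree of freedom), 19 of 46 genes had a Benjamini-Hochberg adjusted p under 0.05 for the line, beside 43.6% of 18180 genes. Of these 11 were higher (21.4% of genes) and 8 lower (22.2%) in SW1990 cells, and 14 and 5 with total counts, beside 24.9% and 18.9% of genes. In this fit the adjusted p was 0.00076 for PSMC4, 0.00274 for PSMD10, 0.00621 for PSMB8 and 0.00639 for PSMG1. Without a filter on low counts the line term called 10 members, 6 higher and 4 lower in SW1990 cells, and 6105 genes. That fit kept every gene with any count, so that the 18180 genes do not apply, and its share is not reported here. The lines were treated here as if the 2 libraries of a line were replicates, which they are not.

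The immunoproteasome share was compared within a library, from the FPKM of each inducible subunit and the constitutive subunit it replaces. PSMB8 made 21.7% of PSMB8 and PSMB5 in unirradiated SW1990 cells, 19.5% in irradiated SW1990 cells, and 6.88% and 7.83% in PANC-1 cells. PSMB9 made 6.52%, 7.61%, 3.37% and 4.89% of PSMB9 and PSMB6, and PSMB10 made 3.32%, 2.00%, 3.38% and 6.17% of PSMB10 and PSMB7. These shares depended on the measure used. From counts per kilobase of the longest transcript PSMB9 made 2.26%, 2.66%, 1.11% and 1.68%, PSMB10 1.87%, 1.71%, 2.29% and 3.75%, and PSMB8 14.5%, 12.9%, 4.46% and 5.39%. That measure changed both the length and the values (counts in place of FPKM), and the part of each was not tested. By FPKM, constitutive subunits exceeded their inducible counterparts in all 4 libraries, by 3.60-fold or more. On both scales the PSMB8 share was higher in both SW1990 libraries than in both PANC-1 libraries.

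**Figure D3:**
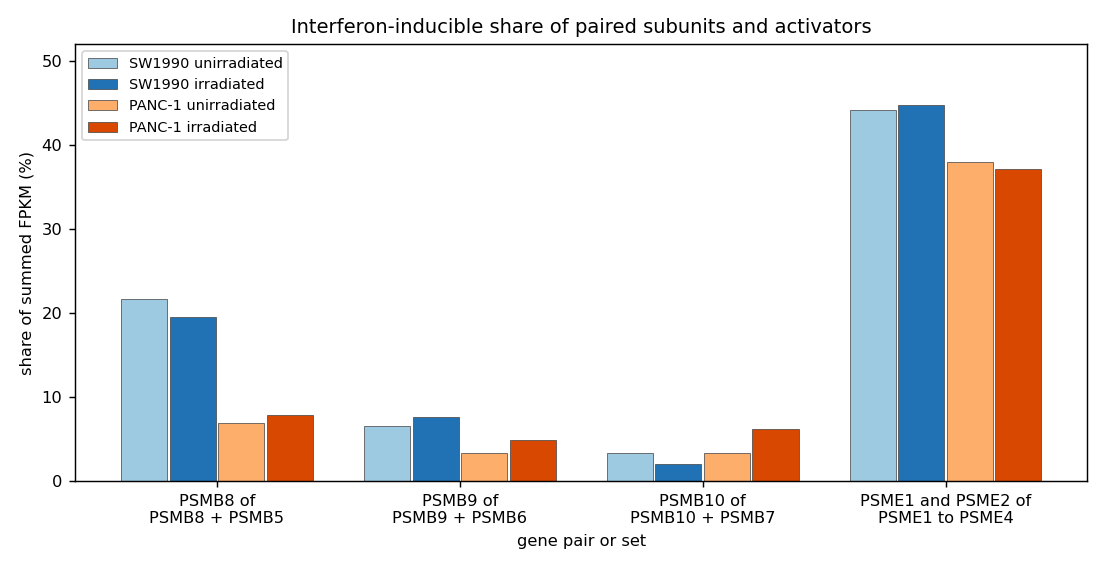
Share (%) of summed FPKM taken by the inducible subunit of each catalytic pair, and by PSME1 and PSME2 among the 4 activator genes, in the 4 libraries. The PSMB8 share is 21.7% and 19.5% in SW1990 and 6.88% and 7.83% in PANC-1 cells.

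PSMB9 had 78 and 100 counts in SW1990 and 60 and 73 in PANC-1 cells, and PSMB10 had 77, 69, 97 and 125. The line difference of PSMB9 in unirradiated cells (0.57, 0.06 to 1.08) was under 2-fold and was not called. The constitutive genes had 1458, 1900, 1975 and 1780 counts (PSMB5), 1097, 1190, 1740 and 1395 (PSMB6) and 3245, 3193, 3327 and 2580 (PSMB7). They differed less between lines than PSMB8, with log2 differences from -0.48 to 0.15 in unirradiated cells. The activator genes PSME1 and PSME2 together made 44.1%, 44.7%, 38.0% and 37.1% of the FPKM of PSME1 to PSME4. PSMB10 shares 34.8% of its exon bases with AC040162.1 on the same strand. With the counts of both summed, the difference of the unirradiated lines turned from -0.14 to 0.41, so that the direction for PSMB10 is uncertain. PSMB8 and PSMB9 overlap each other on opposite strands by 139 bases.

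The letters of the interferon-stimulated response element core, GAAA and GAAA with 2 free bases between them, were searched on both strands from 250 bases before to 50 bases after each start site in RefSeq (GRCh38.p14), where 40 of the 46 genes were found. They occurred in 7 of 40 genes (17.5%, 7 of 49 windows) and in 4.38% of all 27305 genes of the table (3.57% of 35116 windows). The 40 genes all had an FPKM of 1 or more, and the comparison genes were not chosen by expression or base composition. The following 5 windows are shown because they hold the same 10 letters and include both immunoproteasome and activator genes. Capitals mark the motif, and sequences are written in the direction of the motif.
PSMB8, chr6:32844034-32844059, plus strand: gaggaagtGAAAGCGAAAgccacaga
PSMB10, chr16:67936854-67936879, minus strand: gtaaaggcGAAAGCGAAAgcaggaag
PSME1, chr14:24136191-24136216, minus strand: cgcgaaggGAAAGCGAAAgcggtagg
PSME2, chr14:24146621-24146646, minus strand: tggggagtGAAAGCGAAAgcccgggc
PSMG4, chr6:3258906-3258931, plus strand: ccggggccGAAAGCGAAAgcgcgctc

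In the other windows PSMA4 and PSMB4 held other spellings of this motif, and PSMB9 had no match to these letters. The gamma-activated site TTCNNNGAA, which can share the letters GAA with the former, occurred in 7 of 40 genes, PSMB8 included, and in 9.38% of all genes. PSMA7, PSMB1, PSMB6, PSMB7, PSMD4 and PSMG3 were not searched.

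Other genes of interferon-induced antigen processing were counted as a list of 13. In unirradiated SW1990 cells 5 were called higher and 2 lower than in PANC-1 cells, beside 17.8% and 18.4% of all genes. At any size 6 were higher and 7 lower, with a median log2 difference of -0.11. NLRC5, a transactivator of class I genes, had 705 counts against 16, HLA-B 978 against 185 and HLA-C 1879 against 474. The peptide transporter gene TAP1 differed little (705 against 747 counts), and TAP2 (811 against 1888) and TAPBP (1764 against 4966), which act in peptide loading, were higher in PANC-1 cells. These genes were named after their values were seen.

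Radiation was then examined in each line. In RNA from whole cultures, fewer cells of a kind and less RNA per cell cannot be told apart. In SW1990 cells 0 of 46 genes were called changed, where 4.21% of 15731 genes tested were. Of the 46, 20 had a higher and 26 a lower scaled count after irradiation (49.4% of all genes were higher), with a median log2 change of -0.03 (all genes -0.01) and a median absolute change of 0.11 (all genes 0.24). Among 4336 genes whose FPKM reached 20 in either library the median absolute change was 0.16, and for the 42 members at that level it was 0.11. At a fold of 1.5 in place of 2, with the same q-value, 2 members passed, where 9.36% of genes did.

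These were PSMB2 and PSMF1. PSMB2, a beta subunit of the core, had 3992 counts unirradiated and 6044 irradiated in SW1990 and 4069 and 4926 in PANC-1 cells. PSMF1, which encodes the proteasome inhibitor PI31, had 2311 and 1471 in SW1990 and 2639 and 1896 in PANC-1 cells. Both irradiated libraries were higher for PSMB2 and lower for PSMF1 than the unirradiated library of the same line. On the log2 scale PSMB2 differed by 0.59 (0.54 to 0.65) in SW1990 cells and 0.43 (0.37 to 0.49) in PANC-1 cells, and PSMF1 by -0.66 (-0.75 to -0.56) and -0.33 (-0.41 to -0.24).

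Of the 14 core genes, 9 were higher in irradiated SW1990 cells, with a median of 0.05 (49.4% of all genes were higher). The alpha subunit PSMA6 (0.38), the catalytic PSMB5 (0.38) and the beta subunit PSMB3 (0.41) followed PSMB2 in size, and PSMA4 of the alpha ring had the lowest value (-0.27). Of the regulatory particle genes, 6 of 17 were higher, with a median of -0.04. The 6 ATPases had values from -0.22 (PSMC5) to -0.03 (PSMC3), of which none was called and 4 had an interval that included 0. Among the non-ATPase subunits PSMD13 was highest (0.25) and PSMD7 lowest (-0.22). Of the 7 chaperones none was called and 5 had an interval that included 0, with PSMG4 (-0.22) and PSMD9 (-0.22) farthest from 0. Group medians lay between -0.11 and 0.22, apart from the lone inhibitor PSMF1.

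In PANC-1 cells 1 of 46 genes was called changed, where 4.80% of 15159 genes tested were and 2.22% were called lower. This was PSMA6, an alpha subunit of the core (chr14:35278633-35317493, plus strand). It had 786 counts unirradiated and 337 irradiated in PANC-1 cells, and 1227 and 1605 in SW1990 cells. The PANC-1 count fell after irradiation (log2 -1.07, -1.26 to -0.89, q = 3.54e-31), and the SW1990 count was 0.38 higher (0.27 to 0.49). Its FPKM was 27.6 and 16.3 in PANC-1 cells, a log2 change of -0.76 that did not reach 2-fold, and 54.0 and 71.1 in SW1990 cells.

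PSMA6 shares 919 exon bases (14.1% of its own) with AL121594.3, a gene annotated as protein coding on the same strand that spans PSMA6 and its upstream neighbour KIAA0391. AL121594.3 had 552 and 211 counts in SW1990 and 727 and 737 in PANC-1 cells. In SW1990 cells it thus moved opposite to PSMA6 (log2 -1.39), and in PANC-1 cells it was 0.17. KIAA0391 itself had 298 and 446 counts in SW1990 (0.58) and 670 and 233 in PANC-1 cells (-1.37), the direction of PSMA6 in each line. Its FPKM differed by -0.11 and 0.13. With the counts of PSMA6 and AL121594.3 summed, the log2 change was 0.02 in SW1990 and -0.34 in PANC-1 cells. The division of reads among these 3 genes was not tested. With an assumed coefficient of variation of 0.2 between libraries PSMA6 was not called, where 0.660% of genes were.

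The other 45 genes stayed under 2-fold in PANC-1 cells. Over the 46, 25 were higher and 21 lower (50.3% of all genes were higher), with a median of 0.04 (all genes 0.00) and a median absolute change of 0.21 (all genes 0.27; 0.20 for 4145 genes whose FPKM reached 20, and 0.17 for the 39 members among them). Of the regulatory particle genes 11 of 17 were higher, among them PSMC6 (0.38), PSMD1 (0.33) and PSMC5 (0.30). The lowest there was PSMD8 (-0.51, -0.57 to -0.45), followed by PSMD7 (-0.26). By FPKM PSMD8 differed by -0.21 and PSMD7 by -0.49, so that their order depended on the unit. Of the core genes 6 of 14 were higher, led by PSMB2 (0.43) and PSMA2 (0.38), but 8 with total counts and 9 by FPKM, so that the majority turned with the scaling. Over the 46 genes 30 were higher on either of these scales, where the median of all genes was 0.07 with total counts. The constitutive catalytic genes had values of -0.22 (PSMB7), -0.17 (PSMB6) and 0.00 (PSMB5, -0.09 to 0.09), and none was called.

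The 4 activator genes and 3 immunoproteasome genes had values above 0 in irradiated PANC-1 cells, and none was called. PSME3, which forms the nuclear activator PA28 gamma, had 2026 and 2626 counts in PANC-1 cells (0.52, 0.44 to 0.61) and 1158 and 1602 in SW1990 cells (0.46, 0.35 to 0.57). PSME1 differed by 0.43, PSME2 by 0.26 and PSME4 by 0.12. For the immunoproteasome genes the differences were 0.29 for PSMB8, 0.43 for PSMB9 and 0.52 for PSMB10, and their intervals were wide (-0.02 to 0.60, -0.08 to 0.95 and 0.12 to 0.91). None of the 3 had a q-value under 0.001. The 4 chaperones of the core had values from -0.34 (PSMG2) to -0.14 (PSMG4), and PSMD9, a chaperone of the regulatory particle, -0.44. None of these was called.

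The counts and the FPKM values did not always agree. For PSME3 the count was 0.46 higher and the FPKM 0.11 lower after irradiation in SW1990 cells (53.1 and 49.3 FPKM), for PSMB10 the count differed by -0.16 and the FPKM by -0.80 (5.28 and 3.03 FPKM) in the same line, and for PSMG4 by -0.14 and -0.69 (9.54 and 5.91 FPKM) in PANC-1 cells. PSME3 also differed by -0.62 in counts and by 0.94 in FPKM between the unirradiated lines, so that its direction there depended on the unit. PSME3 shares 300 exon bases with BECN1 on the opposite strand.

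In the fit over both lines (edgeR quasi-likelihood test, cell line as a covariate), 0 of 18180 genes and 0 of 46 members had a Benjamini-Hochberg adjusted p under 0.05 (0.00% of genes). An unadjusted p under 0.05 was found for 833 genes (4.58%) and 3 members. These were PSMB2 (log2 0.51), PSME3 (0.50) and PSMF1 (-0.49), with the same direction of the counts in both lines and an adjusted p of 0.936 by the edgeR quasi-likelihood test. DESeq2 called 39 genes and limma on FPKM 1 gene, with 0 members in either. The 4 core chaperones had a median of -0.17 over both lines, and none passed this test.

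The response to radiation was also compared between the lines. The difference of the log2 changes was called at a q-value under 0.001 and beyond 2-fold for 6.25% of 13173 genes, and for 1 of 46 members, PSMA6 (SW1990 minus PANC-1 1.45, 1.24 to 1.67, q = 3.19e-39). PSMC6 (-0.58), PSMC5 (-0.52), PSMD8 (0.51) and PSME1 (-0.50) followed among genes with an interval apart from 0 and a q-value under 0.001. By FPKM the change of PSMD8 was -0.03 in SW1990 and -0.21 in PANC-1 cells, a smaller difference than by counts. PSMC5 shares 19.5% of its exon bases with FTSJ3 on the opposite strand. The interval of PSMB10 was -1.28 to -0.07 with a q of 0.0585.

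Genes that act with the proteasome were counted as 5 lists of 49 genes. Of 11 other parts and assembly factors, 7 were higher in SW1990 and 3 in PANC-1 cells after irradiation, and 0 were called in either. Among all genes tested 49.4% were higher and 4.21% called in SW1990 cells, and 50.3% and 4.80% in PANC-1 cells. The genes of this list with the largest mean change were TXNL1 (-0.16 in SW1990 and -0.36 in PANC-1 cells), a thioredoxin-like protein bound to the particle, and POMP (0.16 and 0.25), a maturation factor of the core. Of 11 tested shuttles and unfoldases, 6 were higher in each line and 0 called. RAD23B, which carries ubiquitinated proteins to the proteasome, had log2 changes of -0.12 and -0.63. Of 6 genes of ubiquitin and its activation 0 were called, and UBA1, the main activating enzyme (0.21 and 0.31), had the largest mean change. Of 13 genes of interferon-induced antigen processing, 10 of 13 tested were higher in SW1990 cells and 11 of 12 in PANC-1 cells, with medians of 0.17 and 0.14 and 0 called. The class I genes HLA-C (0.36 and 0.54) and HLA-B (0.71 and 0.15) had the largest mean change there.

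Among 7 genes for the transcription of proteasome subunits, 0 were called in SW1990 and 1 in PANC-1 cells, beside 4.21% and 4.80% of all genes. NFE2L2, the antioxidant response factor NRF2, had 4823 counts unirradiated and 1487 irradiated in PANC-1 and 892 and 1701 in SW1990 cells. It fell in PANC-1 cells (log2 -1.55) and differed by 0.93 in SW1990 cells without being called. The other PANC-1 values, none of them called, ran from -0.71 (NFE2L1) to -0.01 (NGLY1). NFE2L1, the factor that restores proteasome genes when the proteasome is inhibited, had 9717 and 5358 counts in PANC-1 cells (-0.71) and 2850 and 2044 in SW1990 cells (-0.48). Its relative NFE2L3 had 3626 and 2518 (-0.38) and 1486 and 873 (-0.77). In SW1990 cells 3 of the 7 were higher, NFE2L2, MAFK (0.70) and MAFF (0.63), and 4 lower, where 49.4% of all genes were higher. The median of the 46 proteasome genes in the same pairs was 0.04 (PANC-1) and -0.03 (SW1990). A link between these factors and the proteasome genes was not tested.

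The antioxidant response element core TGACNNNGC, which these factors recognise with small MAF proteins, was found in 15 of 40 genes (37.5%) and in 16.1% of all genes of the table (13.4% of windows). CCAAT was found in 19 of 40 (47.5%) and in 39.7% of all genes. Shown are a gene of the core, a gene of the lid and PSMC4, with the motif in capitals.
PSMA4, chr15:78540652-78540676, plus strand: gggcacgaTGACTCTGCaccgcctc
PSMD12, chr17:67366726-67366750, minus strand: acaaaaccTGACGCTGCaggctgga
PSMC4, chr19:39971184-39971208, minus strand: ctccatagTGACCAAGCcggcctct

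None of these genes was called after irradiation in either line. PSMA4 had 2338 and 1940 counts in SW1990 and 2517 and 1950 in PANC-1 cells (log2 -0.27 and -0.22). PSMD12 had 2307, 2410, 1824 and 1838 (0.06 and 0.16), and PSMC4 differed by -0.07 and -0.03. By FPKM the PANC-1 changes were 0.02 (PSMA4), -0.24 (PSMD12) and 0.04 (PSMC4), opposite in sign to the counts. Their direction in PANC-1 cells thus depended on the unit.

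The share of mitochondrially encoded transcripts was 4.42% and 5.56% in SW1990 and 3.30% and 2.99% in PANC-1 cells, and that of 5 RNAs without a poly(A) tail was 4.62%, 4.597%, 5.76% and 5.87%. Their part in the differences between lines was not tested. In the annotation 18 of the 46 genes overlap an expressed gene over some exon bases, most of all PSMC1, of which 75.8% overlaps NRDE2 on the opposite strand. How many reads such genes share was not measured. Whether the counting used strand is not given in the sources used here, so that the counts of such genes are uncertain.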

How the data were processed

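Reads were trimmed (Trimmomatic 0.36), mapped to GRCh38 (HISAT2 2.0) and quantified (StringTie 1.3.3b) by the authors, per the submitters' processing notes. The deposited table holds a raw count and an FPKM value per gene and library. The authors made the FPKM values, normalized to length and depth, and deposited the counts unscaled; the counting tool is not given in the sources used here. The labels describe the RNA as rRNA depleted, and the kit named is an mRNA kit. In all, 0 columns of per-sample values were left unused. Rows that name no gene (1089) held 0.453% to 0.635% of counts and were left out. The members and all lists were chosen with earlier results of these data known.

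Counts of each pair of libraries were compared gene by gene with an exact two-sided binomial test (SciPy 1.17.1) on library sizes scaled by TMM (edgeR 4.0.16, R 4.3.3), for genes whose FPKM reached 1 in either library. Calls needed q under 0.001 and a fold above 2, with 0 set to 0.01. The 4 libraries were fitted with edgeR's quasi-likelihood test after filterByExpr (common coefficient of variation 0.218), and DESeq2 1.42.0 and limma 3.58.1 were alternatives. The scripts were tested on simulated data. The difference of responses, the neighbours of each gene, the irradiated pair of lines and the comparison at an FPKM of 20 were added after seeing the data.

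Named were the 6 catalytic and immunoproteasome genes, each member called, the highest and lowest member of each group in each line, members whose count and FPKM changes disagreed by over 0.5 (log2) or in sign beyond 0.2, and pathway genes that were called or had the largest mean change. Other named genes illustrate counts, and some genes that the rule names are not reported here. Overlapping exons were taken from GENCODE 29, where all 46 members had the deposited coordinates.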

Additional observations from a re-analysis of the deposited data

Results flagged for a closer look

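The response of PSMA6 to radiation differed between the lines by a log2 of 1.45 (SW1990 minus PANC-1), higher in irradiated SW1990 cells and lower in irradiated PANC-1 cells, by the test of the difference on the read counts. AL121594.3, which shares exon bases with it, moved the other way in SW1990 cells, and with both genes summed the changes were 0.02 and -0.34. The part of the overlapping exons in this difference was not tested.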

How the results depend on the processing

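One library per group limits all comparisons. No paired analysis was possible within a line because each group is 1 library; without the replicate block for cell line, the fit of 4 libraries called 0 genes and 0 members for radiation. With an assumed coefficient of variation of 0.2 or 0.4 between libraries, 0 members were called after irradiation in PANC-1 cells. There 100 and 10 of 15159 genes were called. FPKM at a pseudocount of 0.01 or 1 also called 0 members there, beside 683 and 351 genes. With the same variation 2 members (PSMC4, PSMD10) or 1 (PSMC4) were called between unirradiated lines, beside 3637 and 1635 of 16626 genes. At a fold of 1.5, 2 members were called in SW1990 cells and 17 between the lines, beside 9.36% and 51.0% of genes. Without a filter on low counts the line term called 10 members and 6105 genes, against 19 and 7921 (43.6% of genes) with it. The share of genes without the filter is not reported here.

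Genes called in SW1990 cells (663) became 305 at an FPKM of 5, 1472 at a fold of 1.5, 99 and 15 with the assumed variation, and 338 from FPKM with a pseudocount of 1. In PANC-1 cells (728) they became 312, 1810, 100, 10 and 351. Between unirradiated lines (6010) they became 3722 at an FPKM of 5 and 3637 and 1635 with the assumed variation. Over both lines DESeq2 called 39 genes and limma 1. The members' median log2 change with total counts was -0.059 (SW1990), 0.11 (PANC-1), 0.35 (unirradiated lines) and 0.21 (irradiated lines). In PANC-1 cells it was 0.016 with no FPKM filter, 0.054 at an FPKM of 5, and 0.083 and 0.080 from FPKM. Between unirradiated lines it was 0.14, 0.18, 0.31 and 0.31 in the same settings.

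From counts per kilobase of the longest transcript in place of FPKM, the PSMB8 share was 14.5% and 12.9% (SW1990) and 4.46% and 5.39% (PANC-1), the PSMB9 share 2.26%, 2.66%, 1.11% and 1.68%, the PSMB10 share 1.87% (unirradiated SW1990) and 3.75% (irradiated PANC-1), and the PSME1 and PSME2 share 49.3%, 47.1%, 27.4% and 28.1%. The cause of these changes was not tested.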
